A study of Rattus norvegicus with 8 samples.

Results

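The major histocompatibility complex (MHC) of the rat, named RT1, and the genes that load its molecules with peptide were followed in the injured and the sham-operated spinal cord. Members were the genes whose probe sets carry 1 symbol that begins with RT1-, together with B2m, Cd74, Ciita, Nlrc5, Tap1, Tap2, Tapbp, Tapbpl, Erap1 and Canx. This gave 49 of the 18166 genes measured, in 3 classes: 29 class I chains, a class II set of 12 (10 chains, Cd74 and Ciita) and 8 genes of class I loading, counting the transactivator Nlrc5. Class I chains are counted by symbol, and RefSeq lists RT1-M10-1 and RT1-T24-2 among them as long noncoding RNA genes. Each member had 1 probe set of 1 symbol.

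Messenger RNA had been measured on 8 Affymetrix arrays of thoracic spinal cord from male Long Evans rats of approximately 175 days and 400 g. SCI marks 4 arrays of rats whose thoracic cord was injured, and sham marks 4 arrays of rats that had the laminectomy alone. Both groups recovered for 4 weeks and then ate a palatable high-fat diet (40% fat, 46% carbohydrate, 15% protein). The study is given as 8 weeks in total. This diet is common to both groups and is not compared here. Chow (17% fat, 54% carbohydrate, 29% protein) is also listed for both groups. The design text names 10 rats, while 8 arrays are given. The tissue is labelled as segments T10-11 in one field and T11-12 in another, with the force of the injury not given in the sources used here. Long Evans is an outbred stock, and the labels describe each array as a sample of its own without tying it to a numbered rat. If arrays shared a rat, the p-values would measure only technical spread.

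Class I molecules pair a heavy chain with beta-2 microglobulin, encoded by B2m, and show peptides made in the cytosol to CD8 T cells. The TAP transporter moves those peptides into the endoplasmic reticulum, Erap1 trims them, and calnexin and tapasin hold the chain until it is filled. Class II molecules pair an alpha and a beta chain, travel with the invariant chain Cd74 to the endosome, and take up peptide there with the help of DM, which DO restrains. In the central nervous system class II is known mainly from microglia, macrophages and other antigen-presenting cells, and Ciita and Nlrc5 are the master regulators of class II and class I transcription.

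Class II genes share a promoter module known as the X and Y boxes, bound by the RFX and NF-Y complexes that Ciita works through. The RefSeq promoter windows of the GRCr8 assembly, a Brown Norway genome and not the Long Evans rats of the study, reach from 250 bases before to 50 bases after the annotated start and were present for 43 of the 49 members. They were searched on both strands for GCAAC, a core of the X box, followed after 25 to 28 bases by ATTGG, the core of the Y box. The spacing was set after these class II promoters had been read. Of 9 class II chains with a window, 7 held the pair, against 0 of 27 class I chains, 0 of 6 loading genes and 0.182% of all 33469 windows, a share that includes those 7. The stretches are shown because they are what these class II chains have in common in sequence, and capitals mark GCAAC and ATTGG.
RT1-Ba (chr20:4576973-4577026, plus strand): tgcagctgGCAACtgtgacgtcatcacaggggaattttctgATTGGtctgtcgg
RT1-Da (chr20:4515325-4515378, plus strand): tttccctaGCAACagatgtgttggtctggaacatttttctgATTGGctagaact
RT1-Db1 (chr20:4560230-4560282, minus strand): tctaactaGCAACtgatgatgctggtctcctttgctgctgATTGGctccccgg
RT1-Db2 (chr20:4541700-4541751, minus strand): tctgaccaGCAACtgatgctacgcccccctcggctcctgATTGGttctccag
RT1-DOa (chr20:4758518-4758571, minus strand): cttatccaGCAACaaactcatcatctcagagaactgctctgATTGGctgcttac
RT1-DOb (chr20:4627594-4627644, minus strand): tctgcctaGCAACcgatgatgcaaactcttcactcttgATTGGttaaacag
RT1-Ha (chr20:4772241-4772294, minus strand): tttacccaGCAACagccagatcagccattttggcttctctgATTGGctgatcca

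The pair began between 148 and 76 bases before the start site. It lay nearest the start in RT1-Ba (76 bases) and RT1-Da (82 bases). ATTGG alone was in all 10 windows of the class II set, but also in 18 of 27 class I chains, 3 of 6 loading genes and 37.5% of all windows.

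Interferon-stimulated response elements carry GAAA followed after 2 bases by GAAA, a pattern that 3.92% of all windows held on either strand. Of 6 loading genes with a window 4 held it, as did 3 of 27 class I chains (RT1-N3, RT1-S2 and RT1-S3) and 0 of 10 of the class II set. The other letters searched, TTCNNNGAA, the core of a STAT site, were in 2 of 43 member windows and 8.87% of all. The 4 stretches from the loading genes are printed with the match in capitals. In Tap1 the match is on the opposite strand and reads as its reverse complement, and in Tapbp 2 matches overlap.
B2m (chr3:129549170-129549199, plus strand): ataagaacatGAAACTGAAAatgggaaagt
Tap1 (chr20:4668645-4668674, minus strand): cggtggctgcTTTCGGTTTCttcttcctct
Tap2 (chr20:4652318-4652347, minus strand): gcagcgaagtGAAAGCGAAAgcccgggacc
Tapbp (chr20:4967878-4967913, minus strand): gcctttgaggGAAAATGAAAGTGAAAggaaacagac

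Values are the deposited log2 signals, so a difference of 1 is a doubling. Calls rest on a limma fit of all 18166 genes, with a Benjamini-Hochberg adjusted p under 0.05 as the limit. Array medians lay between 3.73 and 3.81. On the second principal component, which held 11.2% of the variance, SCI 3, sham 1 and sham 2 (-17.18 to -12.62) stood apart from the other arrays (4.53 to 14.79). Where a named member or other presentation gene loses its call without these 3 arrays, the adjusted p without them is given. Markers of the labelled tissue were bright: mean levels over all arrays were 8.94 to 11.33 for 4 oligodendrocyte markers, Mbp the highest, and 7.73 to 11.28 for 4 astrocyte markers, Gfap the highest. Of all genes, 1290 were called higher in SCI and 1282 lower. Higher genes made up 50.2% of calls as deposited and 38.8% once arrays were centred on their medians. The median difference of all genes was -0.01.

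In injured cord 12 of the 49 members were called higher (24.5%) and 0 lower, where 7.10% of all genes were called higher, 7.06% lower and 14.2% in either direction. At an unadjusted limma p under 0.05, 17 members were higher and 2 lower, where 12.5% of all genes were higher and 14.2% lower. Groups did not overlap in 15 members, 13 with SCI higher (the 12 called and Tap2) and 2 with SCI lower, against 20.3% of all genes in either direction. The calls fell on 5 of the 12 in the class II set, 4 of the 8 loading genes and 3 of the 29 class I chains. The share was 41.7% in the class II set and 50% in the loading genes, and in the class I chains it was 10.3%, near the 7.10% of all genes. Single arrays moved these counts: 2 of 8 loading genes were called without SCI 2 or without sham 4, and 6 of 29 class I chains without SCI 4, while the class II set kept a count of 5 whichever 1 array was left out. Cd74 and RT1-DMb alone among the members were called and more than doubled, which 1.45% of all genes did. Median differences were 0.26 in the class II set, 0.31 in the loading genes and 0.15 in the class I chains.

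**Figure D1:**
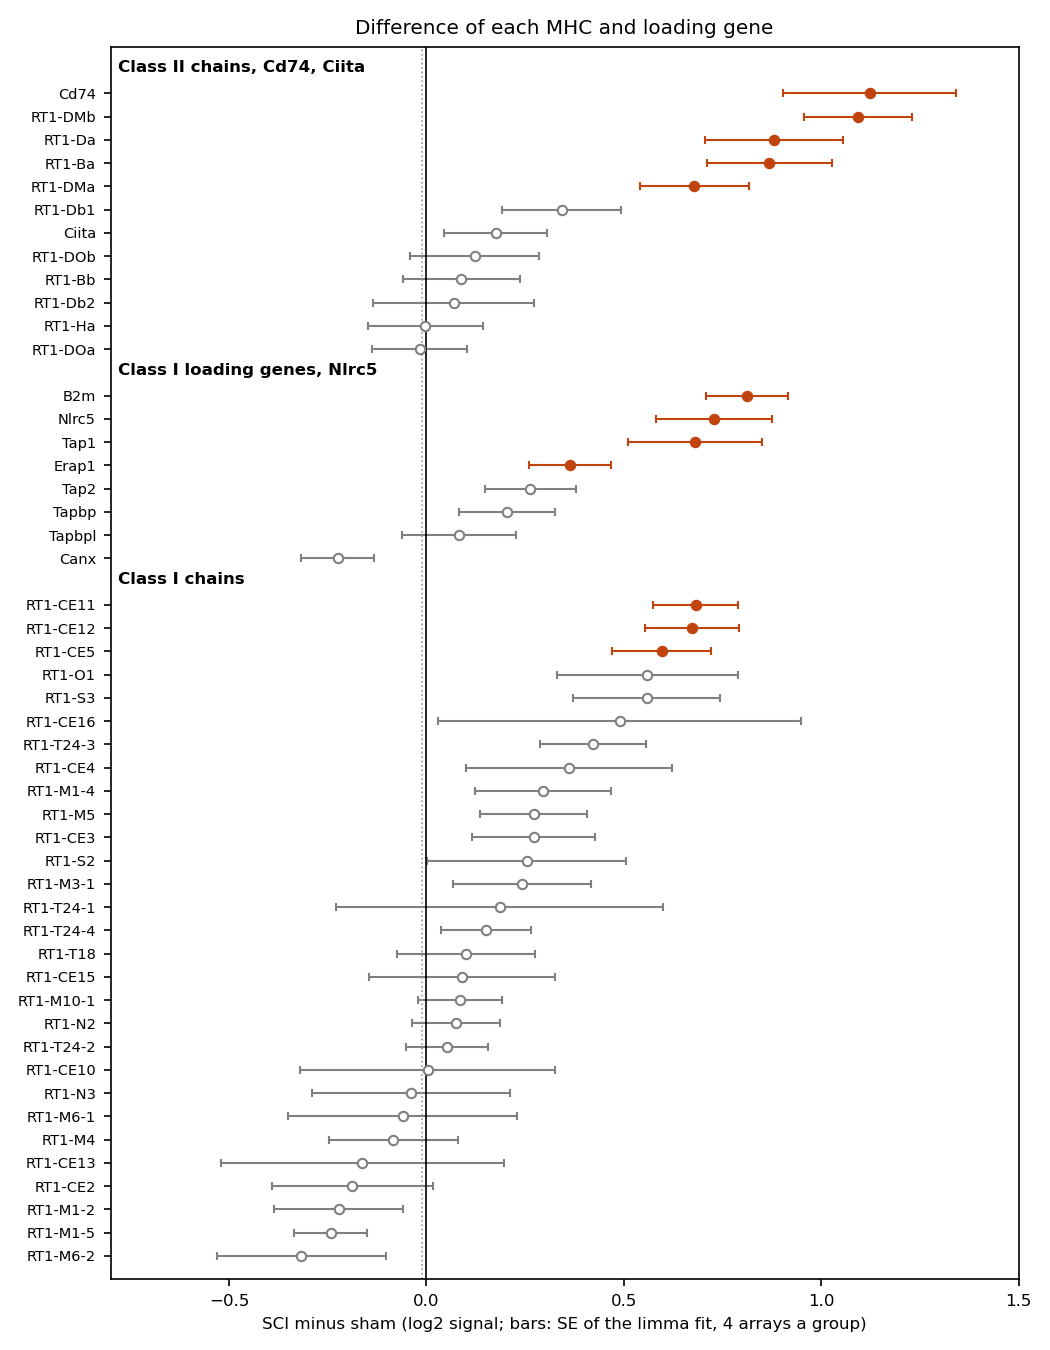
The x axis is the difference, SCI minus sham, in log2 signal for each of the 49 members (rows, grouped by class), with bars of 1 SE from the limma fit over 4 arrays a group. Filled points are the 12 called higher, open points the 37 not called, and the dotted line is the median of all genes (-0.01). The class II set reaches from -0.02 to 1.12 and the class I chains from -0.32 to 0.68.

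The title of each array carries a number from 4 to 11 of unstated meaning. It is 4, 6, 7 and 8 on the SCI arrays and 5, 9, 10 and 11 on the sham arrays. The title number thus follows the groups in large part, and a fit with it estimates their difference less precisely. The SE of Cd74 was 0.26 with it and 0.22 without. With the title number as covariate 7 members were called, and without SCI 3, sham 1 and sham 2 the count was 4. The members called without those 3 arrays were RT1-DMb, RT1-Ba, B2m and Nlrc5. B2m, RT1-DMb and RT1-Ba passed in every alternative that tested them, with adjusted p of at most 0.018, 0.026 and 0.042.

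Within the class II set, the invariant chain, both chains of DM and the alpha chains of the 2 main heterodimers rose, while the beta chains, the DO chains, RT1-Ha and Ciita were not called. Cd74, the invariant chain that guards the class II groove on its way to the endosome, read 8.43, 9.18, 8.92 and 8.11 on SCI arrays 1 to 4 and 7.76, 7.58, 7.63 and 7.18 on sham arrays 1 to 4. The groups did not overlap, and SCI 2 and SCI 3 were the highest. Cd74 rose 2.18-fold, by 1.12 (SE 0.22, adjusted p = 0.0068), from 7.54 ± 0.25 to 8.66 ± 0.48 (SD, n = 4). It kept a difference of 0.96 with the title number as covariate, at an adjusted p of 0.052, and of 1.17 without SCI 3, sham 1 and sham 2, at 0.075. Its within-group SD of 0.38 was above that of 99.2% of the 827 genes within 0.5 of its level.

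DM is the class II-like molecule that swaps peptides in the endosome. Its beta chain RT1-DMb read 7.37, 7.74, 7.48 and 7.10 on the SCI arrays and 6.50, 6.20, 6.26 and 6.37 on the sham arrays. Each injured array lay above each sham array, and the rise was 2.13-fold (1.09, SE 0.14, adjusted p = 5.9e-04). Its alpha chain RT1-DMa read 6.88, 7.40, 6.99 and 6.86 in SCI and 6.56, 6.30, 6.39 and 6.17 in sham. These groups did not overlap either, and RT1-DMa rose 1.60-fold (0.68, SE 0.14, adjusted p = 0.0084). Its call was lost with the covariate (0.062) and without the 3 arrays (0.068).

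RT1-Da and RT1-Ba are alpha chains of the classical rat heterodimers, the counterparts of human DR and DQ. RT1-Da read 5.90, 6.47, 6.73 and 5.97 in SCI and 5.47, 5.43, 5.23 and 5.42 in sham. The sham arrays were close together (SD 0.11) and the SCI arrays were not (SD 0.40), yet every SCI array was above every sham array. RT1-Da rose 1.84-fold (0.88, SE 0.17, adjusted p = 0.0074, and 0.062 without the 3 arrays). RT1-Ba read 4.76, 4.80, 5.17 and 4.32 in SCI against 3.97, 4.01, 3.82 and 3.78 in sham, with no overlap. It rose 1.83-fold (0.87, SE 0.16, adjusted p = 0.0050).

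The beta chains showed smaller differences on these probe sets. RT1-Db1, a partner of RT1-Da, read 4.12, 4.31, 4.03 and 3.85 in SCI and 3.33, 3.95, 3.89 and 3.77 in sham, a difference of 0.34 (SE 0.15, adjusted p = 0.17) with overlapping groups. RT1-Db2, a second beta gene, read 3.14, 3.99, 3.99 and 3.96 in SCI and 4.06, 3.73, 3.45 and 3.55 in sham (0.07, SE 0.20, adjusted p = 0.88). SCI 1 stood far below the other SCI arrays there. RT1-Bb, the partner of RT1-Ba, read 2.99, 3.19, 2.97 and 3.64 in SCI and 2.99, 3.07, 3.20 and 3.19 in sham (0.09, SE 0.15, adjusted p = 0.77). The SCI array with the lowest RT1-Ba, SCI 4, had the highest RT1-Bb.

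DO, which restrains DM and is known mainly from B cells, was not called in either chain. RT1-DOb read 3.71, 3.36, 3.46 and 3.56 in SCI and 3.75, 3.49, 2.91 and 3.44 in sham (0.12, SE 0.16, adjusted p = 0.71). RT1-DOa read 2.27, 2.34, 2.34 and 2.08 in SCI and 2.58, 2.17, 2.23 and 2.12 in sham (-0.02, SE 0.12, adjusted p = 0.95). RT1-Ha, of the locus that corresponds to human DP, read 2.52, 2.72, 2.84 and 2.83 in SCI and 2.77, 3.12, 2.55 and 2.48 in sham (0.00, SE 0.15, adjusted p = 0.99). All 3 had groups that overlapped. The X and Y pair printed above stands in the windows of called chains (RT1-Da, RT1-Ba) and of chains that were not called (RT1-Db1, RT1-Db2, RT1-DOa, RT1-DOb, RT1-Ha) alike. The windows of Cd74 and RT1-DMa, which were called, and of RT1-Bb, which was not, lacked the pair. RT1-DMb, also called, had no window.

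Ciita, the transactivator of class II genes, read 2.48, 2.61, 2.50 and 2.72 in SCI and 2.51, 2.70, 2.16 and 2.24 in sham. The groups overlapped and the difference was 0.17 (SE 0.13, adjusted p = 0.45). Its mean level stood at the 17.2 percentile of all genes. Of the 7 other class II transcription factors 1 was called, Nfya, a subunit of NF-Y (0.43, SE 0.13, adjusted p = 0.046), whose call was lost with most single arrays left out and without the 3 arrays (0.13). Rfx5, of the RFX complex, had -0.34 (SE 0.18, adjusted p = 0.27).

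**Figure D2:**
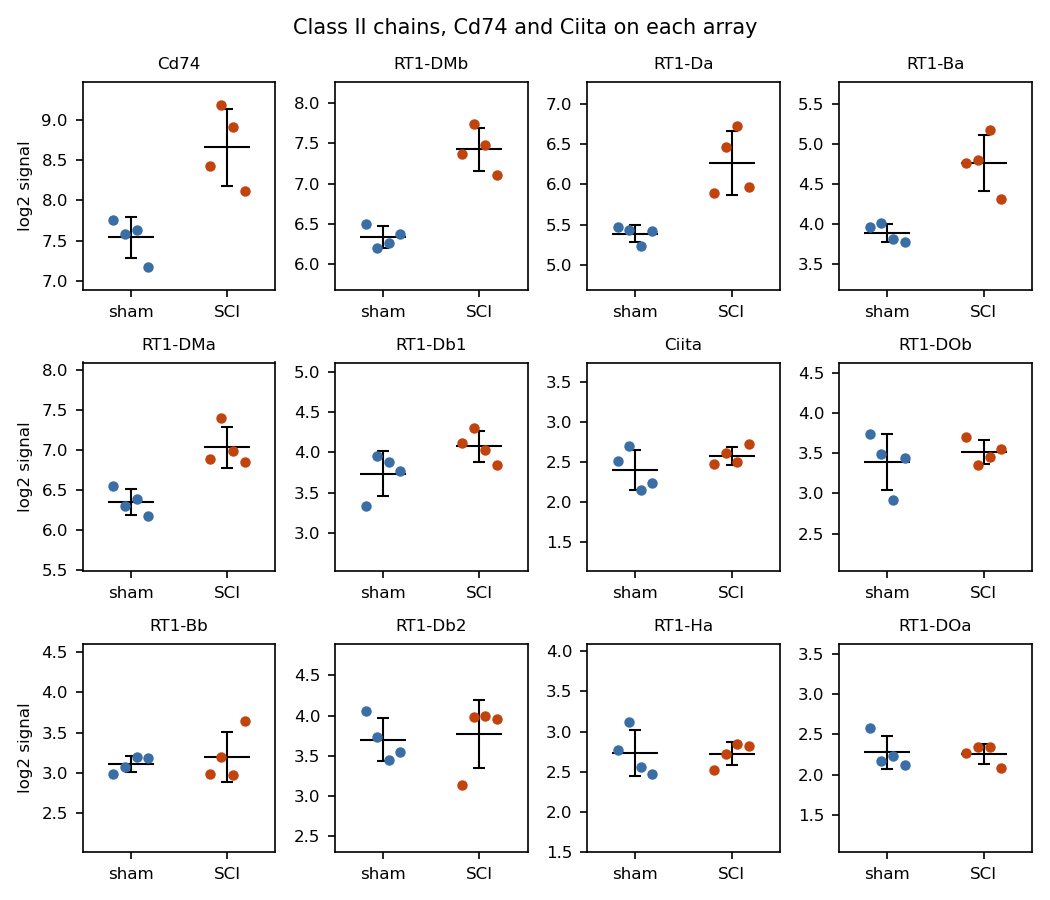
Each panel plots the log2 signal of 1 gene of the class II set on 4 sham (blue) and 4 SCI (orange) arrays, in the order of arrays 1 to 4, with the mean and SD in black. All panels span the same width of log2 scale. The groups part in the first 5 panels, from Cd74 to RT1-DMa, and overlap in the other 7.

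Whether the probe sets of paired genes changed by different amounts was tested on the difference between the 2 log2 signals on each array. The test was an exact permutation (two-sided, 70 assignments of the 8 arrays), which cannot give a p below 0.029. Mean levels were 4.33 for RT1-Ba and 3.16 for RT1-Bb, and 5.83 for RT1-Da and 3.91 for RT1-Db1. Probe sets can differ in response, so a smaller difference in signal need not be a smaller change of the chain. Of 6 pairs compared, RT1-DMb rose more than RT1-DMa by 0.41 (SE 0.10) and Tap1 more than Tap2 by 0.42 (SE 0.13), each at an exact p of 0.0286, or 0.0858 adjusted over the 6 pairs. RT1-Ba exceeded RT1-Bb by 0.78 (SE 0.34) and RT1-Da exceeded RT1-Db1 by 0.54 (SE 0.26), each at an exact p of 0.0857 (0.129 adjusted). For RT1-DOb against RT1-DOa (0.14, SE 0.19) and Tapbp against Tapbpl (0.12, SE 0.21) the exact p was 0.514 and 0.6. Both pairs at 0.0286 had the smallest p these arrays can give. After adjustment a pair could pass only if at least 4 of the 6 reached that p, so the adjusted values say little at 4 arrays a group.

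Among the loading genes B2m, Nlrc5, Tap1 and Erap1 rose and the tapasins, Tap2 and calnexin were not called. B2m, the light chain shared by class I molecules, read 11.59, 11.65, 11.67 and 11.40 in SCI and 10.92, 10.79, 10.61 and 10.75 in sham. It rose 1.76-fold (0.81, SE 0.10, adjusted p = 6.4e-04), from 10.77 ± 0.13 to 11.58 ± 0.12 (SD, n = 4), with the groups well apart. Nlrc5, which drives class I genes as Ciita does class II, read 3.38, 3.65, 3.40 and 3.72 in SCI and 3.04, 2.93, 2.40 and 2.87 in sham. These groups did not overlap, and Nlrc5 rose 1.66-fold (0.73, SE 0.15, adjusted p = 0.0080, and 0.054 with the covariate).

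Tap1 and Tap2 form the peptide transporter. Tap1 read 5.11, 5.55, 5.37 and 4.86 in SCI and 4.56, 4.71, 4.74 and 4.17 in sham, groups that just failed to overlap. It rose 1.60-fold (0.68, SE 0.17, adjusted p = 0.022). The call was lost without SCI 2 (0.066), SCI 3 (0.061) or sham 4 (0.059), with the covariate (0.12), without the 3 arrays (0.14) and with all probe sets tested (0.075). Tap2 read 5.07, 5.21, 5.15 and 5.11 in SCI and 4.86, 5.03, 5.02 and 4.58 in sham. Its groups did not overlap either, which held for 9.36% of all genes with SCI higher, but the difference of 0.26 (SE 0.11) was not called (adjusted p = 0.17).

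Erap1, the aminopeptidase that trims peptides in the endoplasmic reticulum, read 6.88, 6.95, 6.65 and 6.70 in SCI and 6.35, 6.40, 6.59 and 6.39 in sham. It rose 1.29-fold (0.36, SE 0.10, adjusted p = 0.040). The call was lost in 9 of 17 alternatives, among them the loss of SCI 1, SCI 2, sham 1, sham 2 or sham 4 (0.085 to 0.11), centring of the arrays (0.059) and the title number as covariate (0.14). Without SCI 3, sham 1 and sham 2 the difference was 0.36 (adjusted p = 0.18).

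The chaperones of loading were not called. Tapasin, Tapbp, which bridges TAP and the class I chain, read 5.21, 5.65, 5.38 and 5.14 in SCI and 5.12, 5.08, 5.27 and 5.09 in sham (0.20, SE 0.12, adjusted p = 0.33). Its relative Tapbpl, a peptide editor, read 4.85, 4.74, 4.18 and 4.74 in SCI and 4.40, 4.57, 4.59 and 4.61 in sham (0.08, SE 0.14, adjusted p = 0.79), with SCI 3 far below the others. Calnexin, Canx, a lectin chaperone of many glycoproteins, read 8.96, 9.05, 9.10 and 9.13 in SCI and 9.16, 9.26, 9.37 and 9.36 in sham. Every SCI array was below every sham array, as for 10.9% of all genes, and the difference of -0.22 (SE 0.09) was not called (adjusted p = 0.14). With a variance trend and robust fit it was called (0.032). The GAAA pattern printed above stands in B2m and Tap1, which were called, and in Tap2 and Tapbp, which were not. Nlrc5 and Erap1, also called, had no window and could not be searched.

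Of the 29 class I chains, the called ones were RT1-CE11, RT1-CE12 and RT1-CE5, all of the C/E region. RT1-CE11 read 5.08, 4.82, 4.85 and 4.83 in SCI and 4.18, 4.22, 4.40 and 4.05 in sham, with no overlap, and rose 1.60-fold (0.68, SE 0.11, adjusted p = 0.0022). RT1-CE12 read 5.52, 5.62, 5.64 and 5.41 in SCI and 4.66, 4.87, 5.16 and 4.80 in sham and rose 1.59-fold (0.67, SE 0.12, adjusted p = 0.0041). RT1-CE5 read 4.22, 4.31, 4.45 and 4.67 in SCI and 3.92, 3.99, 3.72 and 3.64 in sham and rose 1.51-fold (0.60, SE 0.13, adjusted p = 0.0099). In each of these chains the lowest SCI array was above the highest sham array. None of the 3 passed once SCI 3, sham 1 and sham 2 were left out (adjusted p = 0.055, 0.089 and 0.052).

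The 3 class I chains with the brightest signal were RT1-T24-3, RT1-S3 and RT1-CE12. RT1-T24-3, a nonclassical chain, read 6.12, 6.19, 5.95 and 5.75 in SCI and 5.54, 5.83, 5.32 and 5.63 in sham, and its difference of 0.42 (SE 0.13) was not called (adjusted p = 0.063). RT1-S3 read 5.51, 5.97, 5.95 and 5.32 in SCI and 5.29, 5.21, 4.68 and 5.35 in sham (0.56, SE 0.19, adjusted p = 0.074). Both overlapped through SCI 4, and without it they were called (0.034 and 0.038). They were also called when genes below the median level were left out (0.021 and 0.027) and with a variance trend and robust fit (0.029 and 0.033), and RT1-T24-3 without sham 2 (0.040) and with array weights (0.035).

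**Figure D3:**
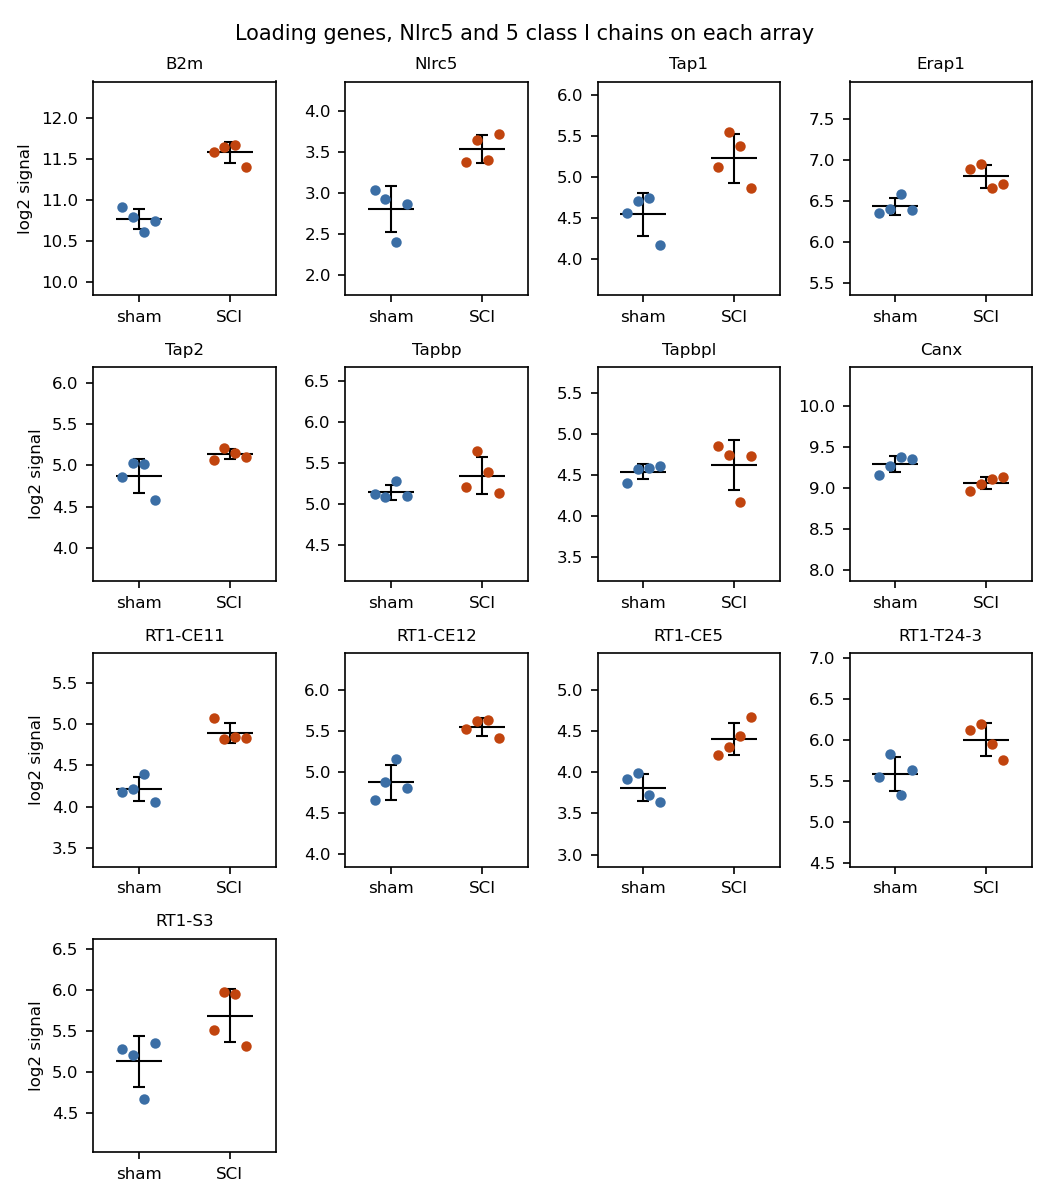
Each panel plots the log2 signal of 1 gene on 4 sham (blue) and 4 SCI (orange) arrays, in the order of arrays 1 to 4, with the mean and SD in black, for the 8 loading genes and 5 class I chains. All panels span the same width of log2 scale. B2m, Nlrc5, Tap1, Tap2 and Erap1 and the chains RT1-CE11, RT1-CE12 and RT1-CE5 lie higher in SCI without overlap. Canx lies slightly lower, also without overlap. Tap2 and Canx were not called.

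By region, 3 of 10 chains of the C/E region were called (median difference 0.32), 0 of 9 of the M region (median -0.06) and 0 of 10 of the N, O, S and T loci (median 0.17). At an unadjusted limma p under 0.05 the numbers were 3, 1 and 3, or 7 of the 29 chains, where 26.7% of all genes passed. M region chains, some of which serve in pheromone-sensing neurons, had differences from -0.32 in RT1-M6-2 to 0.29 in RT1-M1-4. RT1-M1-4, not called in the full fit (adjusted p = 0.32), was called without SCI 4 (0.48, adjusted p = 0.027). RT1-M1-5 had groups that did not overlap, with SCI lower (-0.24, SE 0.09, adjusted p = 0.12). The 26 chains that were not called lay between -0.32 and 0.56, and 18 of them were above 0.

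A further 3 probe sets carry several RT1 symbols and so name no member. The one for RT1-CE1 and RT1-CE12 read 8.48, 8.08, 8.51 and 7.96 in SCI and 7.67, 7.65, 7.60 and 7.27 in sham, and rose by 0.71 (SE 0.15, adjusted p = 0.0098 with these 3 added to the table). The one for RT1-A1, RT1-A2 and RT1-A3, the classical class I genes, read 5.69, 5.42, 5.29 and 5.60 in SCI and 4.81, 4.95, 5.79 and 4.60 in sham (0.46, SE 0.22, adjusted p = 0.22). There 3 sham arrays lay below all SCI arrays and sham 3 lay above them all. The one for RT1-CE7 and RT1-CE11 had 0.23 (SE 0.11, adjusted p = 0.21). Class I chains resemble each other closely, so signal on 1 probe set can come from several of them, and no classical A chain had a probe set of its own.

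Several class I chains, picked out here by their spread, varied more between arrays of 1 group than genes of like signal did. Of the 29 chains, 9 had a within-group SD above the 95th percentile of all genes within 0.5 of their level, against 2 of 12 in the class II set (Cd74 and RT1-Da) and 0 of 8 loading genes. RT1-CE16 read 4.28, 3.89, 4.48 and 2.32 in SCI and 2.74, 4.06, 3.63 and 2.58 in sham, so that high and low arrays stood in both groups. Its SD of 0.85 compares with a median of 0.23 among 2573 genes of like level. RT1-CE13 was highest on sham 1 (4.48) and lowest on SCI 1 (2.65), RT1-CE10 lowest on sham 1 (2.60) and highest on sham 4 (4.06), and RT1-T24-1 highest on sham 1 (2.92) and near 1 on SCI 3, sham 2 and sham 4.

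**Figure D4:**
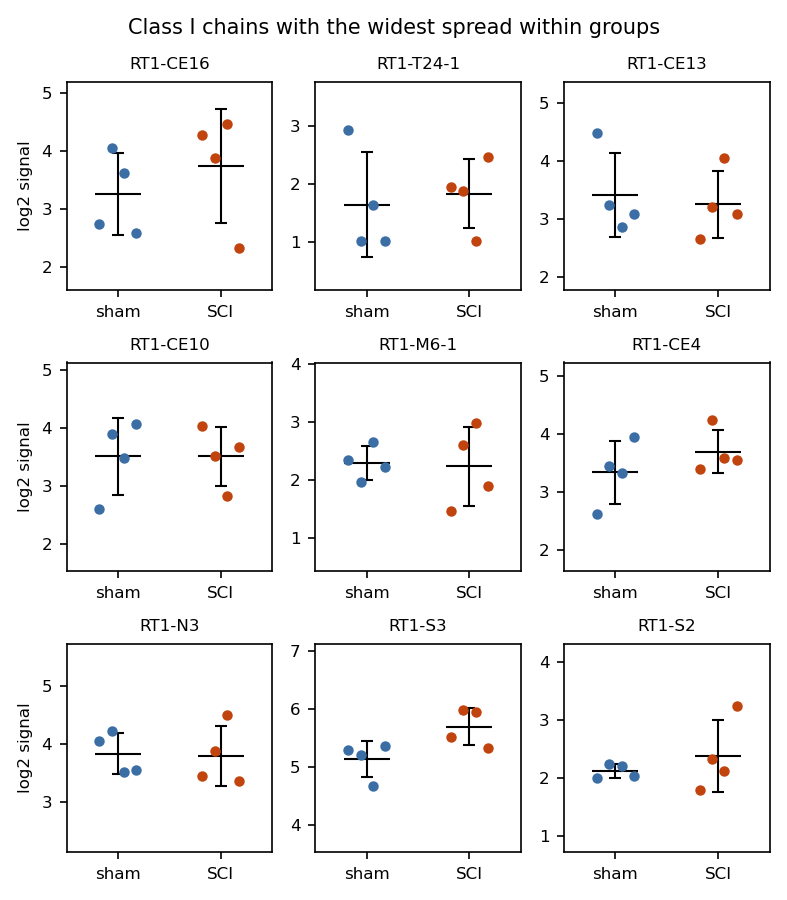
Each panel plots the log2 signal of 1 of the 9 class I chains whose within-group SD was above the 95th percentile of genes of like level, on 4 sham (blue) and 4 SCI (orange) arrays in the order of arrays 1 to 4, with the mean and SD in black. All panels span the same width of log2 scale. In RT1-CE16, RT1-T24-1, RT1-CE13 and RT1-CE10 the arrays of each group spread over more than 1 log2 unit and the groups overlap.

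Many members were dim. Of the 49, 34 had a mean below 4.74, the median of all genes, among them 24 of the 29 class I chains, and 4 of these 34 were called, where 3.62% of all genes below that level were called higher. Of the 15 at or above it 8 were called, where 10.6% of such genes were called higher. Without detection calls a dim member cannot be called absent, and levels of different probe sets are not amounts of RNA that can be set against each other.

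Across arrays, the mean of the class II set was 4.55, 4.84, 4.79 and 4.58 on SCI arrays 1 to 4 and 4.35, 4.31, 4.14 and 4.14 on the sham arrays. The mean of the loading genes was 6.38, 6.56, 6.37 and 6.35 in SCI and 6.05, 6.10, 6.07 and 5.98 in sham, and both sets parted the groups. The mean of the class I chains was 3.40, 3.60, 3.63 and 3.50 in SCI and 3.43, 3.41, 3.29 and 3.29 in sham, which overlapped. For the 5 class I chains at or above the median level of all genes, the mean parted the groups. It was 5.31 to 5.69 in SCI and 5.04 to 5.14 in sham. With genes below that level left out of the fit, 3 of these 5 chains were called. In that fit 1367 of 9083 genes were called higher. Among the 5 called genes of the class II set the highest injured array was SCI 2 in 3 and SCI 3 in 2, and the lowest was SCI 4 in 4 and SCI 1 in RT1-Da. The 3 called class I chains were highest on SCI 1, SCI 3 and SCI 4. On the first principal component of all genes (45.6% of the variance), SCI 2 (-30.25) and SCI 4 (-14.2) were also the outermost injured arrays.

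Markers of the cells that carry class II were measured on the same arrays. Of 8 macrophage and microglia markers 8 were called higher (median difference 1.00), with a mean of 7.31 to 7.64 in SCI and 5.97 to 6.16 in sham, and SCI 4 was the lowest injured array and SCI 2 the highest. Their part in the class II and class I differences was not tested, and in whole tissue more cells of a type and more RNA per cell cannot be told apart. Of 7 dendritic cell markers 1 was called, the integrin Itgax (1.56, SE 0.17, adjusted p = 2.8e-04), which macrophages can carry too, while Flt3, Zbtb46, Xcr1, Clec9a, Batf3 and Ccr7 lay between -0.35 and 0.17. Of 4 B cell markers (Cd79a, Cd79b, Ms4a1 and Blk) 0 were called by limma, and 0 passed at an unadjusted p under 0.05. Their mean was 3.70 to 3.86 in SCI and 3.53 to 3.78 in sham, and all 4 were below the median level of all genes. Of 8 T and NK cell markers 4 were called higher: Cd8b (2.58), Cd8a (1.48), Cd4 (0.95) and Cd3g (0.49). The other 4 were not called: Cd3d (0.18), Cd3e (0.13), Ncr1 (0.07) and Klrb1 (-0.02). The mean of all 8 was 3.71 to 3.97 in SCI and 3.05 to 3.23 in sham. Mean levels over all arrays were 8.05 for Cd4, but 2.06 for Cd3g, 2.37 for Cd3d and 2.21 for Cd3e. Which cells carried the called markers of this list was not tested. Markers of resident cells moved on the same arrays. Neuron markers were called lower in 6 of 7, oligodendrocyte markers in 4 of 4 and astrocyte markers in 1 of 4 (Slc1a2), with Gfap called higher. Of 4 endothelial markers 1 was called, Cdh5 (0.68). The part of these shifts in the members' differences was not tested.

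**Figure D5:**
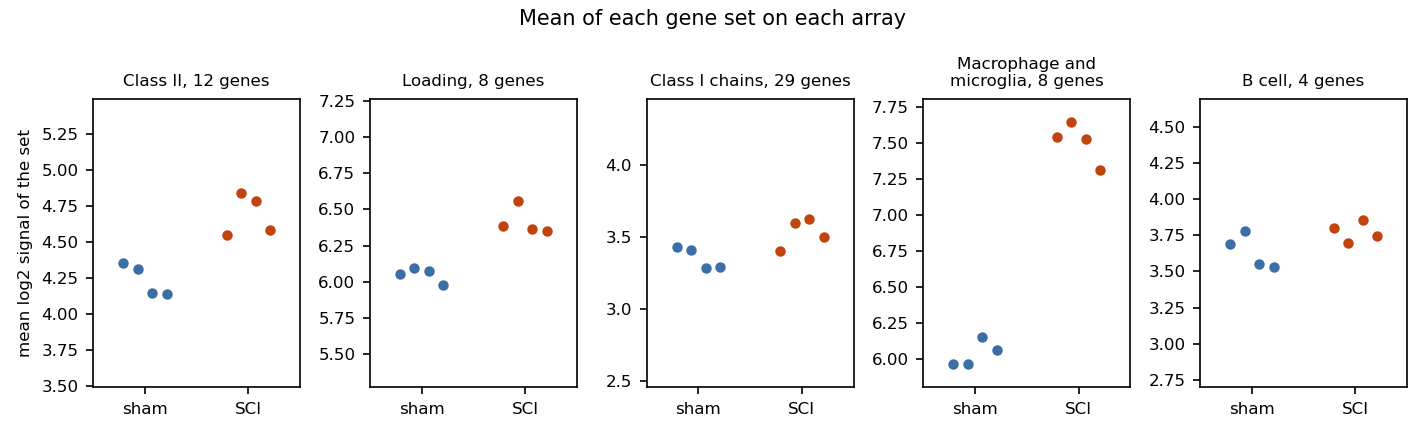
Each panel plots the mean log2 signal of a gene set on 4 sham (blue) and 4 SCI (orange) arrays, in the order of arrays 1 to 4, and all panels span the same width of log2 scale. The class II set, the loading genes and the macrophage and microglia markers part the groups, and the class I chains and the 4 B cell markers overlap.

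Other genes of the presentation pathways were read from lists set by their roles, with earlier results of these data known. Beside each list count stands the share of all genes called higher, 7.10%, or 10.6% of genes at or above the median level. Of 9 genes listed for endosomal processing all 9 were called higher, with a median of 1.45. The list holds Asah1 (0.46, SE 0.11, adjusted p = 0.018), a lysosomal lipid hydrolase and not a protease. The call of Asah1 was lost in 2 of 17 alternatives (adjusted p of at most 0.18). Ifi30, the thiol reductase that unfolds antigen, rose by 1.99 (SE 0.16, adjusted p = 4.7e-05), and legumain, Lgmn, by 1.45 (SE 0.11, adjusted p = 3.4e-05). Ctss, the protease that frees class II from the invariant chain, rose by 0.35 (SE 0.10, adjusted p = 0.041), but its call was lost without any 1 array except sham 4, and without SCI 3, sham 1 and sham 2 together (0.23, adjusted p = 0.31). The co-stimulation list held 8 genes, among them the adhesion molecule Icam1 and the inhibitory ligands Cd274 and Pdcd1lg2. Of these 8 genes 6 were called higher, led by Cd86 (1.52, SE 0.19, adjusted p = 6.3e-04). Cd80 rose by 0.84 (SE 0.15, adjusted p = 0.0039, and 0.0501 without the 3 arrays). The inhibitory ligands were not called, with -0.03 for Cd274 and 0.02 for Pdcd1lg2.

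Of 11 genes of the immunoproteasome and peptide loading 3 were called higher: the immunoproteasome subunits Psmb8 (0.93, SE 0.10, adjusted p = 2.0e-04) and Psmb10 (0.45, SE 0.10, adjusted p = 0.014), and P4hb (0.35, SE 0.10, adjusted p = 0.048), whose call was lost without any 1 array except SCI 4. Without SCI 3, sham 1 and sham 2 the adjusted p was 0.071 for Psmb10 and 0.29 for P4hb. The immunoproteasome subunit Psmb9 was not called (0.26, SE 0.16, adjusted p = 0.36), and its groups overlapped. Psme1 (0.33, adjusted p = 0.41) and Psme2 (0.33, adjusted p = 0.085) were not called either. The chaperone Calr had 0.15 (SE 0.08, adjusted p = 0.29). Of 11 genes of the interferon gamma axis 6 were called higher and 0 lower. Ifng itself, the cytokine, read 2.55 ± 0.22 in sham and had a difference of 0.29 (SE 0.15, adjusted p = 0.26), whereas the receptor chain Ifngr1 rose by 0.64 (SE 0.13, adjusted p = 0.0077, and 0.068 without the 3 arrays) and the transcription factor Irf8 by 0.85 (SE 0.11, adjusted p = 5.7e-04). Irf1, which acts on class I and Ciita promoters, rose by 0.49 (SE 0.13, adjusted p = 0.032), and lost its call in 9 of 17 alternatives.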

How the data were processed

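Per the labels' protocols, RNA from fresh spinal cord was biotin-labelled and hybridised to Affymetrix Rat Gene 2.0 ST arrays. The deposited log2 values come, per the submitters' processing notes, from Affymetrix Expression Console and RMA, which corrects background, normalizes between arrays and summarises probe sets. Versions and genome build: not given in the sources used here. The table held 36685 probe sets, of which 18511 carry 1 symbol in the platform annotation, 575 several and 17599 none there. A symbol with several probe sets kept the one of highest mean signal, which left 18166 genes. All 49 members matched a RefSeq (GRCr8) gene ID under the same symbol.

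The groups were tested in R 4.3.3 using limma 3.58.1 (lmFit, eBayes, no covariate), with Benjamini-Hochberg adjustment over all genes, a script tested on simulated data. Adjusted p-values come from limma, except those named exact. Lists are given by counts and medians, with no list test. Replicates were numbered in the order of the sample list. The number of arrays, 4 a group, limits precision. Members, lists, promoter letters and chain pairs were chosen with earlier results of these data known. Values on each array are given for the class II set, the loading genes, called class I chains, the 3 brightest and those with an array far from its group. Alternatives changed the centring, the filter on dim genes, the probe set rule, the features tested, the variance model, array weights, the normalization, a covariate and the arrays used.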

Additional observations from a re-analysis of the deposited data

Results flagged for a closer look

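In 4 of 98 combinations of a member and a group, 1 array stood so far from the other 3 that its gap exceeded Dixon's 95% critical value for 4 samples, where chance gives about 5% of groups. RT1-CE11, called higher, read 5.08 on SCI 1 and 4.82 to 4.85 on the other SCI arrays. RT1-CE15, a class I chain that was not called (0.09, SE 0.23, adjusted p = 0.86), read 3.68 on sham 1 and 3.16 to 3.20 on the other sham arrays, and 2.85, 3.89, 3.03 and 3.82 on the SCI arrays. RT1-Db2 read 3.14 on SCI 1 and 3.96 to 3.99 on the other SCI arrays. Tapbpl read 4.18 on SCI 3 and 4.74 to 4.85 on the other SCI arrays.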

How the results depend on the processing

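No paired analysis was possible because the labels give the groups no shared replicate numbers. Over 9 alternatives and 8 fits that left out 1 array each, none of the 12 called members changed sign, 3 kept their call wherever they were tested (B2m, RT1-DMb and RT1-Ba) and 9 lost it at least once. Of the 37 members not called, 4 passed at least once (RT1-T24-3, RT1-S3, RT1-M1-4 and Canx), and 18 changed sign, which carries no direction for values that were not called. Under the settings not named here, the counts of calls stayed within 1.5 times the reported ones.

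With the title number as covariate 7 members were called (3 in the class II set, 1 loading gene), 14 other presentation genes and 1356 genes in all. Without SCI 3, sham 1 and sham 2 the members called were 4 (0 class I chains, 2 in the class II set, 2 loading genes), the other presentation genes 12 and all genes 847; 5 arrays were fitted there. With all probe sets tested 2 loading genes, 16 other presentation genes and 1441 genes were called, against 4, 25 and 2572. A variance trend with a robust fit gave 5 class I chains against 3. Leaving out 1 array gave 10 to 15 members, 3 to 6 class I chains (6 without SCI 4), 5 in the class II set each time, 2 to 4 loading genes (2 without SCI 2 or sham 4), 18 to 21 other presentation genes and 1703 to 2540 genes (1703 without SCI 2). With the 3 RT1 probe sets of several symbols, an alternative chosen after seeing the data, 4 class I features were called. The cause of these changes was not tested.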
